A study of Mus musculus with 12 samples.

Results

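The intercalated cells of the kidney collecting duct secrete acid or bicarbonate into the urine. Type A cells pump protons into the duct with a vacuolar proton pump, an ATP-driven complex of a soluble catalytic sector and a membrane sector, and return bicarbonate to the blood through the anion exchanger Slc4a1. Type B cells secrete bicarbonate through the chloride exchanger pendrin, encoded by Slc26a4, and the transcription factor Foxi1 is needed for both cell types to form. The members described here are 10 genes listed by name for these functions, out of 47719 genes in the deposited table. The rule used no measured value, but the list was drawn up with earlier results of these data known. They are 5 pump subunits with a restricted tissue distribution (Atp6v1c2, Atp6v1b1, Atp6v0d2, Atp6v1g3 and Atp6v0a4), 3 anion exchangers (Slc4a1, Slc26a4 and Slc4a9), Foxi1, and the intracellular water and anion channel Aqp6. All 10 passed the expression filter, which kept the 14109 genes that reached 1 FPKM in 3 or more of the 12 libraries.

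RNA from kidney cortex of male C57BL6/J mice, given as 8 weeks old, was sequenced in 4 groups of 3 libraries. EtOH4hLPS mice were fed a Lieber DeCarli liquid diet with ethanol for 6 weeks, in steps that ended at 6% ethanol, and were injected with 10 mg/kg lipopolysaccharide (LPS), a cell wall component of Gram-negative bacteria, 4 hours before the kidneys were taken. EtOH mice had the same ethanol diet and a saline injection, PF4hLPS mice were pair-fed a diet of the same calories in which maltose-dextrin replaced ethanol, and received LPS, and PF mice were pair-fed and received saline. The source label reads whole kidney while the region label reads cortex. The labels number 3 replicates a group without saying that each came from a separate mouse. The p-values therefore cover the spread between libraries, which may be technical.

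Values are FPKM, a fragment count divided by transcript length and library depth, as scaled by the authors. Fold changes are differences of log2(FPKM + 1) and understate the change of genes at low FPKM. The deposited FPKM summed to 1005219 to 1935824 per library, fragment totals are unknown, and the spacing of low values put the depth between 0.491 (PF4hLPS 2) and 1.20 (PF 3) times that of PF 1. In 3 libraries (PF4hLPS 2, EtOH4hLPS 1 and PF 1) values declined with transcript GC content, by 0.412, 0.308 and 0.248 log2 units per 10 percentage points of GC, whereas the slopes of the other libraries were between -0.08 and 0.21. Summed FPKM of the proximal tubule marker list was 1888 to 2380 in EtOH4hLPS, 2037 to 2120 in EtOH, 1281 to 1862 in PF4hLPS and 1769 to 2343 in PF libraries. The inner medulla list summed to 1.67 to 21.04 over the 12 libraries, compared with 166 to 251 for the 10 intercalated cell genes. In these tissue samples, fewer cells of a type and less RNA per cell cannot be told apart.

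Averaged over the 12 libraries, Atp6v0a4 had the highest level at 115 FPKM. In the mouse this membrane sector subunit is also made in the proximal tubule. Atp6v1b1 (18.8 FPKM), Atp6v1g3 (17.5), Slc26a4 (15.7) and Atp6v0d2 (12.04) followed, and their ranges over the libraries overlapped. Atp6v1c2 averaged 6.88 FPKM, Foxi1 4.50, Slc4a1 4.01, Slc4a9 3.24 and Aqp6 2.11, again with overlapping ranges between neighbours. The plot of each library's level shows these values by group.

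**Figure D1:**
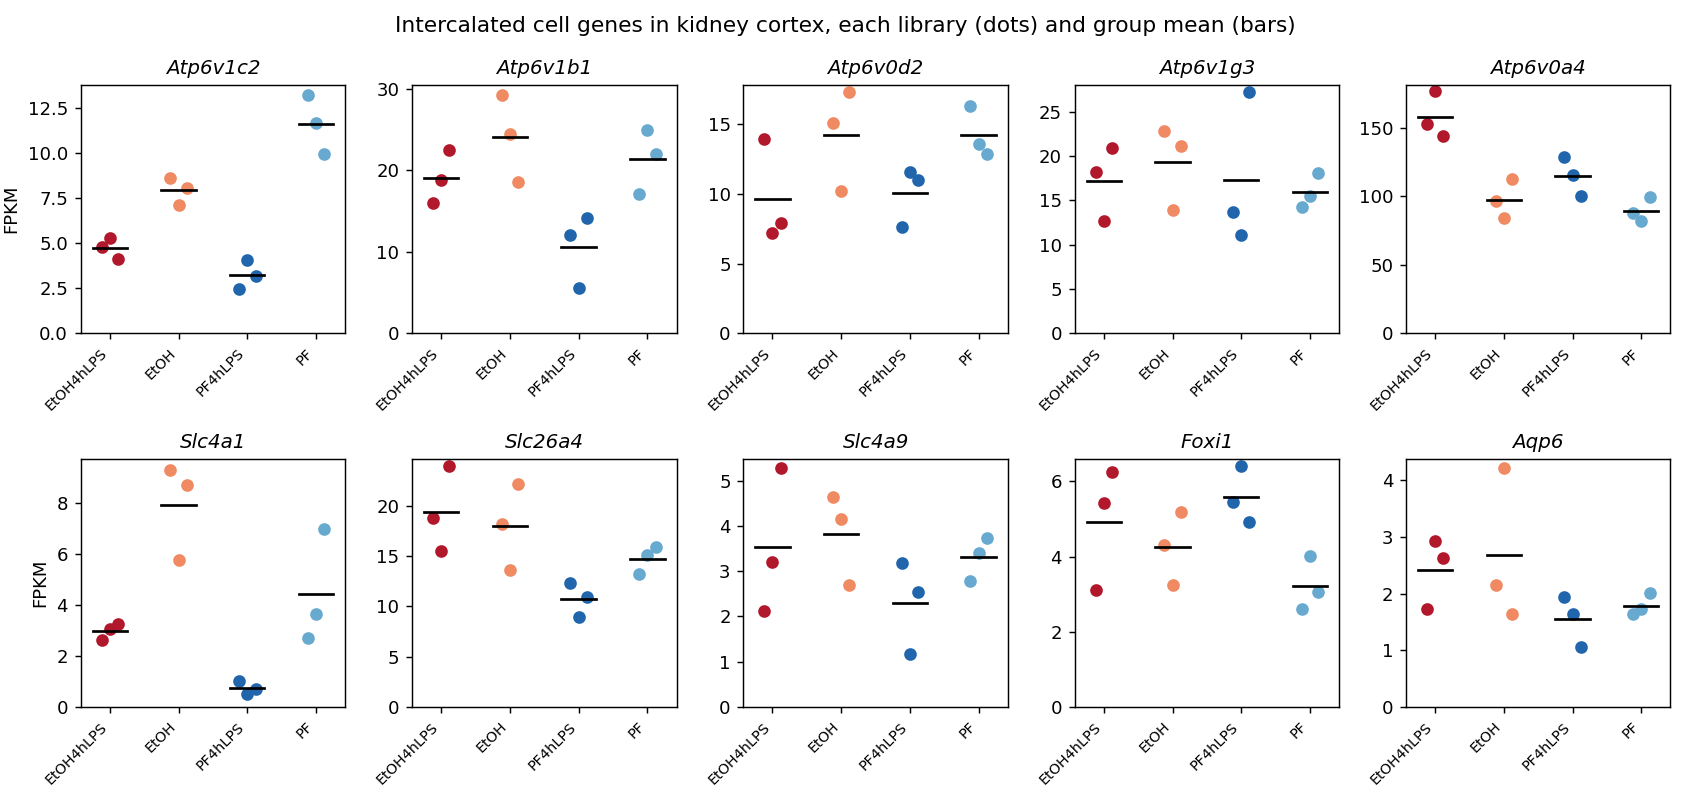
FPKM (linear axis from 0, scaled separately for each gene) of the 10 intercalated cell genes in each library (dots) with the group mean (bars), n = 3 per group. Atp6v1c2 lay between 2.44 and 5.29 FPKM in the 6 LPS libraries, against 7.12 to 13.3 FPKM in the 6 saline libraries, and Atp6v0a4 was highest in the EtOH4hLPS libraries.

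The first question was how LPS changed these genes within each diet. In pair-fed mice the pump subunits Atp6v1c2 and Atp6v1b1 and the exchanger Slc4a1 fell, and no member rose past the threshold, a Benjamini-Hochberg adjusted p under 0.05 in limma over all genes tested. The 3 of 10 members that fell compare with 6.89% of all genes tested that fell, and the 0 of 10 that rose with 11.3% that rose. In ethanol-fed mice Atp6v1c2 and Slc4a1 fell and Atp6v0a4 rose. That is 2 of 10 lower against 6.39% of all genes, and 1 of 10 higher against 10.7%. The median fold change of the members was -0.43 in the pair-fed comparison and -0.14 in the ethanol-fed one, beside medians over all genes of -0.01 and 0.02. Averaged over both diets, 3 members fell (13.2% of all genes fell) and 1 rose (16.4% of all genes rose), with a member median of -0.22 and 8 of 10 folds below 0.

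Atp6v1c2 encodes the C2 isoform of the stalk subunit that joins the soluble sector to the membrane sector (chromosome 12, 17284721 to 17329359, minus strand, GRCm38; ENSMUSG00000020566). It was at 2.44, 4.06 and 3.20 FPKM in PF4hLPS, against 13.3, 11.7 and 9.97 FPKM in PF. In the ethanol-fed mice it was at 4.79, 5.29 and 4.11 FPKM in EtOH4hLPS, against 8.61, 7.12 and 8.07 FPKM in EtOH. Every LPS library lay below every saline library. The log2 fold change was -1.59 ± 0.18 in pair-fed mice (standard error; limma adjusted p = 6.38e-05), -0.64 ± 0.18 in ethanol-fed mice (adjusted p = 0.0299) and -1.11 ± 0.13 averaged over diets (adjusted p = 3.93e-05). The fold change in ethanol-fed mice missed the threshold when any 1 of EtOH4hLPS 1, EtOH4hLPS 3, the EtOH libraries or PF 2 was left out, with adjusted p between 0.0504 and 0.112. Of its 2174 exon bases, 50 are shared with Pdia6 on the other strand, whose averaged fold change was 0.10 (limma adjusted p = 0.612). The strand setting of the counting is not given in the sources used here.

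Atp6v1b1 encodes the B1 isoform of the nucleotide-binding B subunit in the soluble sector, which is mutated in human distal renal tubular acidosis with deafness (chromosome 6, 83742990 to 83758855, plus strand; ENSMUSG00000006269). Its level was 12.05, 5.57 and 14.1 FPKM in PF4hLPS, against 17.0, 24.99 and 22.0 FPKM in PF, with no overlap. In ethanol-fed mice it was 16.0, 18.8 and 22.5 FPKM in EtOH4hLPS, against 29.3, 24.5 and 18.6 FPKM in EtOH, and these groups overlapped. The fold change was -1.02 ± 0.30 in pair-fed mice (limma adjusted p = 0.0337), -0.31 ± 0.30 in ethanol-fed mice (adjusted p = 0.555) and -0.67 ± 0.21 averaged (adjusted p = 0.0321). PF4hLPS 2, the lowest library, was also the one with the steepest decline with GC content, and over the 12 libraries the deviation of Atp6v1b1 from its group mean had a Pearson r of 0.86 with the GC slope. Without PF4hLPS 2 the pair-fed fold change was -0.65 (adjusted p = 0.0865), and it also missed the threshold without PF 2 or PF 3 (adjusted p = 0.126 and 0.10), with no filter on low values (adjusted p = 0.10) and in a fit of the compared groups alone (adjusted p = 0.10). With the 3 GC-low libraries left out it was -0.80 (adjusted p = 0.0411). The averaged fold change missed the threshold when any 1 of EtOH4hLPS 1, EtOH4hLPS 2, EtOH 1, EtOH 2, PF 2 or PF 3 was left out, with adjusted p between 0.0589 and 0.0808. It also missed the threshold with no filter on low values (limma adjusted p = 0.0884).

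The upstream sequences of the 2 pump genes that fell are shown because Foxi1, a forkhead factor, is known to act on the Atp6v1b1 promoter. They are the RefSeq windows of GRCm38.p6, read 5′ to 3′ on the gene's strand. Atp6v1b1 spans chr6:83742767-83742989 (plus strand, 223 bases, with 27 bases of annotated exon left out) and Atp6v1c2 spans chr12:17324731-17324980 (minus strand, 250 bases). Capitals mark the forkhead motif TGTTTAC. 
Atp6v1b1: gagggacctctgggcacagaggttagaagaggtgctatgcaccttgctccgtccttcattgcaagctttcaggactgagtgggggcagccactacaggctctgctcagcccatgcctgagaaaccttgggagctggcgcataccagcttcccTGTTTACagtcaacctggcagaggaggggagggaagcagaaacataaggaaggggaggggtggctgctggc
Atp6v1c2: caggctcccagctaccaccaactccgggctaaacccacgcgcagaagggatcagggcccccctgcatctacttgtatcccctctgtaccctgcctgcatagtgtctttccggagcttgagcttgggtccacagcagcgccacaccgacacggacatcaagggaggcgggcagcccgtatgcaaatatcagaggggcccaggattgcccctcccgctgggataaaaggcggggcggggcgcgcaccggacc
The motifs searched, on both strands, were TGTTTAC and TATTTAC, in the 250 bases before the RefSeq start. The single match in Atp6v1b1 ends 92 bases before that start. None of the other 6 members with a window searched (Atp6v1c2, Atp6v1g3, Atp6v0a4, Foxi1, Slc26a4 and Aqp6) held a match, and 5.76% of 32851 promoter windows did. These are matches of letters only. The RefSeq start of Atp6v1c2 lies inside the GENCODE gene, so its window is upstream of 1 of its annotated starts.

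The other pump subunits of the membrane sector were Atp6v0a4 and Atp6v0d2. Atp6v0a4, the isoform of the proton-path subunit that is mutated in human distal renal tubular acidosis (chromosome 6, 38048483 to 38124586, minus strand; ENSMUSG00000038600), was at 153, 177 and 144 FPKM in EtOH4hLPS, against 96.8, 83.9 and 113 FPKM in EtOH. In pair-fed mice it was at 129, 115 and 101 FPKM in PF4hLPS, against 87.9, 81.8 and 99.4 FPKM in PF. All LPS libraries lay above the saline libraries of the same diet. The fold change was 0.69 ± 0.18 in ethanol-fed mice (limma adjusted p = 0.0179), 0.35 ± 0.18 in pair-fed mice (adjusted p = 0.198) and 0.52 ± 0.12 averaged (adjusted p = 0.00778). The ethanol-fed call was lost without EtOH4hLPS 2, EtOH 1 or EtOH 2 (adjusted p between 0.0599 and 0.0793). It was also lost after quantile normalization (0.29; adjusted p = 0.331) and under equal total FPKM of protein coding genes (0.32; adjusted p = 0.286). The averaged call was lost under these 2 scalings as well (limma adjusted p = 0.385 and 0.389). Scaling every library to equal total FPKM moved the averaged LPS fold change of all genes by -0.35 at the median and that of Atp6v0a4 to 0.11 (adjusted p = 0.648), with a pair-fed value of -0.14 (adjusted p = 0.687). Under that scaling no member rose, and 5, 3 and 5 members fell in pair-fed mice, in ethanol-fed mice and averaged, while the pair-fed calls over all genes were 844 higher and 2679 lower in place of 1589 higher and 972 lower. Of its 4973 exon bases, Atp6v0a4 shares 259 with D630045J12Rik on the same strand (averaged fold change -0.31; limma adjusted p = 0.133) and 62 with Tmem213 on the other (0.11; adjusted p = 0.862).

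Atp6v0d2, the d2 isoform of the membrane sector subunit that docks the central stalk (chromosome 4, 19876841 to 19922605, minus strand; ENSMUSG00000028238), was at 7.61, 11.6 and 10.98 FPKM in PF4hLPS, against 16.3, 13.6 and 12.8 FPKM in PF. It was at 13.9, 7.17 and 7.89 FPKM in EtOH4hLPS, against 15.1, 10.2 and 17.3 FPKM in EtOH. The pair-fed groups did not overlap and the ethanol-fed groups did, through the high value of EtOH4hLPS 1. Its fold change was -0.48 ± 0.26 in pair-fed mice (limma adjusted p = 0.243), -0.54 ± 0.26 in ethanol-fed mice (adjusted p = 0.209) and -0.51 ± 0.19 averaged (adjusted p = 0.0606). The averaged value was -0.64 without EtOH4hLPS 1 (adjusted p = 0.0119), -0.61 without EtOH 2 (adjusted p = 0.0334) and -0.65 without the 3 GC-low libraries (adjusted p = 0.0179). With all libraries kept, it passed with a correction for GC content (-0.64; adjusted p = 0.00536) and after quantile normalization (-0.65; adjusted p = 0.0196). It also passed under scaling to equal total FPKM (-0.89; adjusted p = 0.00202). In all, 8 of 23 alternatives gave a call. Atp6v1g3, the kidney isoform of the peripheral stalk subunit G (chromosome 1, 138273738 to 138289462, plus strand; ENSMUSG00000026394), averaged 17.3 ± 4.2 FPKM in EtOH4hLPS (SD, n = 3 in every group) and 19.3 ± 4.8 in EtOH, and 17.3 ± 8.7 in PF4hLPS and 15.9 ± 2.0 in PF. PF4hLPS 3, at 27.2 FPKM, was the highest of its 12 libraries, and the groups overlapped in both diets (averaged fold change -0.07 ± 0.22; limma adjusted p = 0.85).

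The 5 restricted subunits each have a widely expressed paralogue, and the share of the restricted form within a pair is read inside 1 library. Among the 10 genes of these pairs, Atp6v1c2 and Atp6v1b1 lost share after LPS and Atp6v0a4 gained it. Atp6v1c2 made up 7.65, 9.94 and 7.73% of the summed FPKM of Atp6v1c2 and Atp6v1c1 in EtOH4hLPS, against 17.3, 16.0 and 13.04% in EtOH. In pair-fed mice the share was 4.51, 6.43 and 5.51% in PF4hLPS, against 20.6, 20.0 and 17.0% in PF. The LPS and saline libraries did not overlap, and the mean log2 ratio differed by -1.32 (-0.88 in ethanol-fed and -1.76 in pair-fed mice; two-sided exact permutation test within diets, p = 0.005, the smallest it can give, adjusted over the 5 pairs 0.00833). For Atp6v1b1 with Atp6v1b2 the share was 4.73 to 12.5% in the 6 LPS libraries, against 12.8 to 21.3% in the 6 saline libraries. The log2 ratio differed by -0.90 (exact permutation p = 0.005, adjusted 0.00833), -0.73 in ethanol-fed and -1.06 in pair-fed mice.

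Atp6v0a4 made up 86.0 to 88.9% of its pair with Atp6v0a1 in LPS libraries, against 80.5 to 86.6% in saline libraries. These ranges overlapped slightly, and the log2 ratio differed by 0.42 (exact permutation p = 0.005, adjusted 0.00833). The Atp6v0d2 share of its pair with Atp6v0d1 was 13.5 to 28.5% in LPS libraries, against 21.5 to 29.2% in saline libraries, with a log2 ratio difference of -0.56 (exact permutation p = 0.07, adjusted 0.0875). The 2 highest LPS shares, 28.5 and 27.5%, came from EtOH4hLPS 1 and PF4hLPS 2, which are GC-low libraries. For Atp6v1g3 with Atp6v1g1 the share was 6.51 to 11.5%, against 8.45 to 13.5%, and the ratio difference was -0.26 (exact permutation p = 0.21, adjusted 0.21). The paralogues themselves had averaged LPS fold changes of 0.20 (Atp6v1c1), 0.23 (Atp6v1b2), 0.05 (Atp6v0d1), 0.19 (Atp6v1g1) and 0.10 (Atp6v0a1), with limma adjusted p between 0.198 and 0.843.

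**Figure D2:**
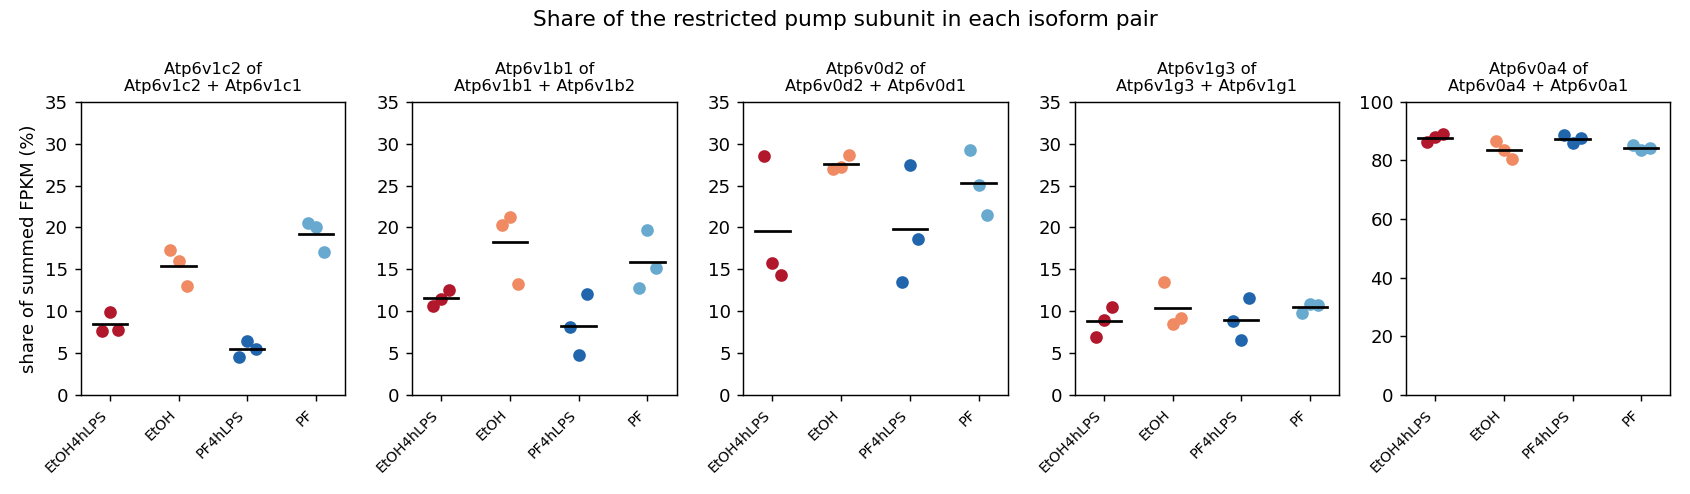
Share (percent of summed FPKM, linear axis) of the restricted subunit in each of 5 isoform pairs, for each library (dots) and group mean (bars), n = 3 per group; the axis runs to 100% for Atp6v0a4 and to 35% for the others. The Atp6v1c2 share was 4.51 to 9.94% in the 6 LPS libraries, against 13.04 to 20.6% in the 6 saline libraries.

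The exchanger Slc4a1, the basolateral bicarbonate exit of type A cells (chromosome 11, 102348824 to 102366203, minus strand; ENSMUSG00000006574), fell in both diets. It was at 1.00, 0.518 and 0.699 FPKM in PF4hLPS, against 2.69, 3.65 and 6.96 FPKM in PF. In ethanol-fed mice it was at 2.62, 3.07 and 3.25 FPKM in EtOH4hLPS, against 9.28, 5.77 and 8.68 FPKM in EtOH. LPS and saline libraries of the same diet did not overlap, and the fold change was -1.57 ± 0.27 in pair-fed mice (limma adjusted p = 0.00143), -1.14 ± 0.27 in ethanol-fed mice (adjusted p = 0.0113) and -1.36 ± 0.19 averaged (adjusted p = 0.000188). Without EtOH 1 the ethanol-fed value was -1.03 (adjusted p = 0.0528). Slc4a1 is also the band 3 gene of red cells. The summed FPKM of 9 erythroid genes was 233 to 518 in EtOH4hLPS, 121 to 248 in EtOH, 206 to 588 in PF4hLPS and 174 to 306 in PF. Of the 6 erythroid genes tested, the haem synthesis gene Alas2 (0.74 ± 0.12; limma adjusted p = 0.000713) and the beta globin gene Hbb-bs (0.95 ± 0.29; adjusted p = 0.0264) rose averaged over diets and 4 did not pass the threshold, beside 16.4% of all genes tested that rose. Under scaling to equal total FPKM neither passed (Alas2 0.38, adjusted p = 0.0932; Hbb-bs 0.53, adjusted p = 0.173). With any 1 of EtOH4hLPS 2, EtOH4hLPS 3, EtOH 1, EtOH 2, PF4hLPS 3, PF 1 or PF 2 left out, Hbb-bs had an adjusted p between 0.0508 and 0.0688.

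The type B exchangers did not pass the threshold under LPS in the values as deposited. Slc26a4 (chromosome 12, 31519827 to 31559969, minus strand; ENSMUSG00000020651) was at 12.3, 8.92 and 10.9 FPKM in PF4hLPS, against 13.2, 15.1 and 15.9 FPKM in PF, without overlap (fold change -0.43 ± 0.21; limma adjusted p = 0.189). In ethanol-fed mice it was at 18.8, 15.5 and 23.9 FPKM in EtOH4hLPS, against 18.2, 13.6 and 22.2 FPKM in EtOH, with overlap (0.11 ± 0.21; limma adjusted p = 0.804). Scaled to equal total FPKM, Slc26a4 passed as lower in pair-fed mice (-0.89; adjusted p = 0.0386) and averaged (-0.55; adjusted p = 0.0423). Slc4a9, a basolateral exchanger of type B cells (chromosome 18, 36528147 to 36556273, plus strand; ENSMUSG00000024485), averaged 3.53 ± 1.6 FPKM in EtOH4hLPS and 3.83 ± 1.0 in EtOH, and 2.30 ± 1.0 in PF4hLPS and 3.31 ± 0.48 in PF (SD, n = 3). Its averaged fold change was -0.28 ± 0.21 (limma adjusted p = 0.354), with overlap in both diets.

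Foxi1 (chromosome 11, 34204338 to 34208089, minus strand; ENSMUSG00000047861), the transcription factor upstream of several of the other members, was at 5.44, 6.41 and 4.92 FPKM in PF4hLPS, against 2.60, 4.01 and 3.07 FPKM in PF. In ethanol-fed mice it was at 3.10, 5.41 and 6.25 FPKM in EtOH4hLPS, against 4.32, 3.26 and 5.19 FPKM in EtOH. The pair-fed groups did not overlap and all PF4hLPS libraries were higher, but the fold change of 0.65 ± 0.24 missed the threshold (limma adjusted p = 0.08). It passed with the GC correction (0.77; adjusted p = 0.0277) and without EtOH4hLPS 1 (adjusted p = 0.0358). Under scaling to equal total FPKM it was 0.24 (limma adjusted p = 0.527), and without the 3 GC-low libraries 0.45 (adjusted p = 0.194). In ethanol-fed mice it was 0.15 ± 0.24 (adjusted p = 0.747) with overlap. The averaged value was 0.40 ± 0.17 (limma adjusted p = 0.095), 0.47 with the GC correction (adjusted p = 0.0384) and 0.52 without EtOH4hLPS 1 (adjusted p = 0.018). Scaled to equal total FPKM, the averaged value was 0.06 (limma adjusted p = 0.829). In pair-fed mice the Foxi1 fold change was above 0, and those of Atp6v1b1 and Slc4a1 were below 0. A link between Foxi1 and the changes of these 2 genes was not tested. Aqp6 (chromosome 15, 99601400 to 99605477, plus strand; ENSMUSG00000043144), found in vesicles of type A cells, had 2.42 ± 0.63 FPKM in EtOH4hLPS and 2.67 ± 1.4 in EtOH, and 1.54 ± 0.45 in PF4hLPS and 1.79 ± 0.19 in PF (SD, n = 3). The averaged fold change of Aqp6 was -0.10 ± 0.18 (limma adjusted p = 0.713).

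Ethanol feeding was compared with pair-feeding in saline-injected mice, in LPS-injected mice and over both states, and the LPS effect was compared between diets. No member passed the threshold in limma in any of these 4 comparisons, in which 0.0284%, 0.0992%, 0.319% and 0.0284% of all genes tested passed. At an unadjusted p under 0.05 there were 2, 5, 4 and 1 of 10 members, beside 521, 1524, 1334 and 616 of the 14109 genes. With LPS, 5 of 10 members (Atp6v1c2, Atp6v1b1, Atp6v0a4, Slc4a1 and Slc26a4) were higher in every EtOH4hLPS library than in every PF4hLPS library, which held for 5.34% of all genes tested. The transcripts of these 5 had a GC content of 49.7 to 55.1%, above the median of 48.4% over the genes tested. Slc4a9, Foxi1 and Aqp6 were also above that median, and Atp6v0d2 and Atp6v1g3 were below it. The part of GC content in this count was not tested. The member median was 0.20 without LPS, 0.45 with LPS and 0.29 averaged, beside all-gene medians of -0.0096, -0.0027 and -0.0099. The shift with LPS was not particular to the members. Other gene lists had medians with LPS of 0.59 (acid-base genes of other segments), 0.56 (principal cell) and 0.46 (proximal tubule). Those of the other intercalated cell, thick limb and distal tubule, and endothelial lists were 0.44, 0.36 and 0.30. The other pump subunits had 0.15 and the erythroid list 0.08, and the neutrophil, macrophage and inner medulla lists had -0.34, -0.06 and -0.36.

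Slc4a1 had the largest ethanol fold change of the members. It averaged 2.98 ± 0.33 FPKM in EtOH4hLPS and 0.740 ± 0.24 in PF4hLPS, and 7.91 ± 1.9 in EtOH and 4.43 ± 2.2 in PF (SD, n = 3). The groups did not overlap with LPS (1.20 ± 0.27; limma adjusted p = 0.119) and overlapped without it (0.77 ± 0.27; adjusted p = 1), and the averaged value was 0.98 ± 0.19 (adjusted p = 0.0607). It passed without PF 3 (1.14; limma adjusted p = 0.0296), and with the 3 GC-low libraries left out it was 0.85 (adjusted p = 0.166). Slc26a4 had 0.79 ± 0.21 with LPS (limma adjusted p = 0.181) and 0.25 ± 0.21 without (adjusted p = 1). Atp6v1b1 had 0.87 ± 0.30 with LPS (adjusted p = 0.318), and 0.62 without the GC-low libraries (adjusted p = 0.331).

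Atp6v1c2 had ethanol fold changes of opposite sign in the presence and absence of LPS. All 3 EtOH libraries were below the PF libraries (-0.49 ± 0.18; limma adjusted p = 1) and all 3 EtOH4hLPS libraries were above the PF4hLPS libraries (0.45 ± 0.18; adjusted p = 0.401). The LPS effect was 0.95 ± 0.26 log2 units less negative in ethanol-fed mice, which missed the threshold over all genes (unadjusted p = 0.00322, limma adjusted p = 0.847). For the other 9 members the 95% interval of that difference included 0. Across all genes the ethanol fold change with LPS had a Spearman correlation of 0.35 with transcript GC content, and the difference of the LPS effects one of 0.33. With a correction for GC content, Slc4a1 passed averaged over LPS states (0.91; limma adjusted p = 0.0245), and the Atp6v1b1 fold change with LPS (0.76; adjusted p = 0.181) and the Atp6v1c2 difference of LPS effects (0.87; adjusted p = 0.752) did not pass.

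**Figure D3:**
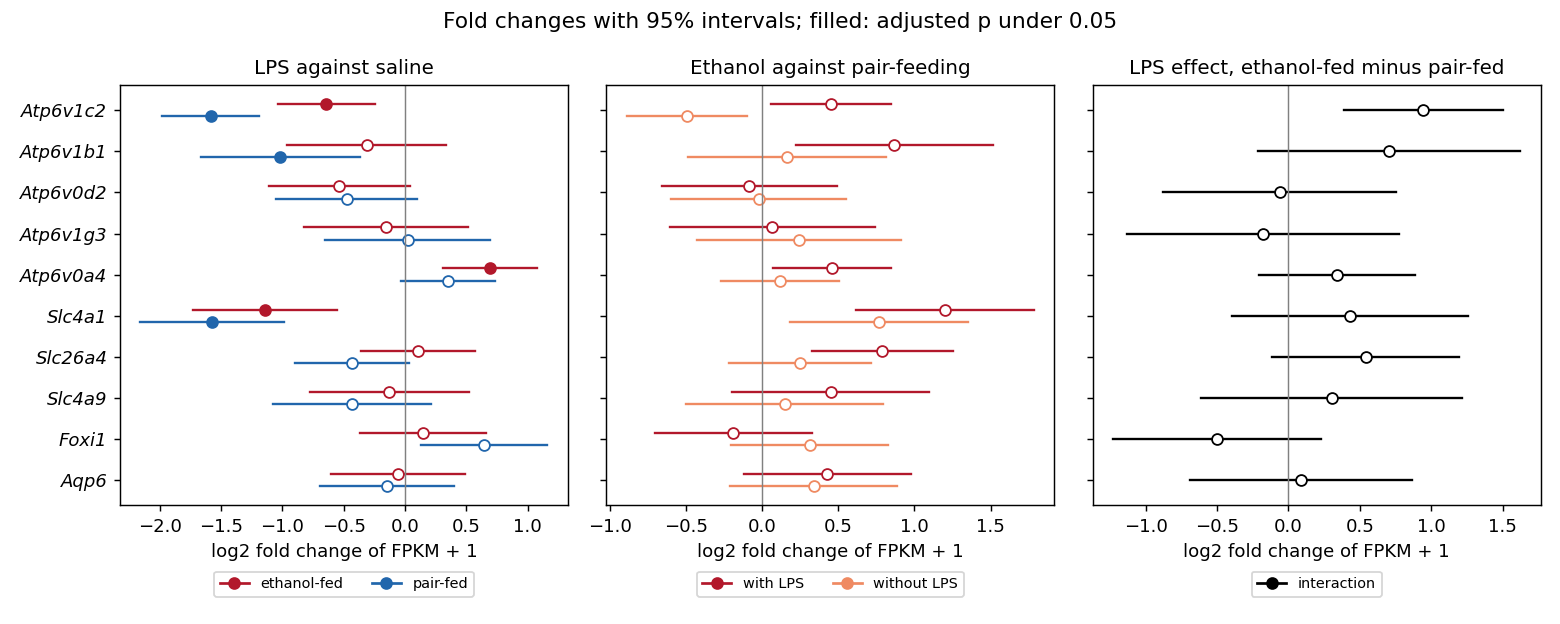
log2 fold changes of FPKM + 1 (linear axis) with 95% intervals from limma for the 10 members: LPS against saline within each diet, ethanol against pair-feeding with and without LPS, and the LPS effect in ethanol-fed minus that in pair-fed mice. Filled circles passed an adjusted p of 0.05; these are Atp6v1c2 and Slc4a1 in both diets, Atp6v1b1 in pair-fed mice and Atp6v0a4 in ethanol-fed mice.

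Other genes of the same cells and of acid-base handling were counted from lists by function. Of 20 further pump subunits and accessory proteins, 18 were tested and none passed in either diet alone. Averaged over diets 2 rose and 0 fell, namely the lysosome and osteoclast isoform Tcirg1 (0.78 ± 0.23; limma adjusted p = 0.025) and the central stalk subunit Atp6v1d (0.35 ± 0.12; adjusted p = 0.0456), with a list median of 0.19. Of all genes tested, 16.4% rose and 13.2% fell averaged over diets. Under scaling to equal total FPKM Tcirg1 was 0.44 (limma adjusted p = 0.178) and Atp6v1d -0.06 (adjusted p = 0.722). Neither of these 2 genes passed without the GC-low libraries (adjusted p = 0.0612 and 0.139). The Tcirg1 call was lost under 7 of 23 alternatives, and Atp6v1d kept its call under 5 of 23. Of 20 other intercalated cell genes, 14 were tested, and 5 fell in pair-fed mice, 2 in ethanol-fed mice and 5 averaged, with 0 rising in each and an averaged median of -0.39. The shares of all genes tested that fell were 6.89% in pair-fed mice, 6.39% in ethanol-fed mice and 13.2% averaged.

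Bsnd, the barttin subunit of basolateral chloride channels that is also made in the thick ascending limb, was at 0.950, 0.465 and 0.568 FPKM in EtOH4hLPS, against 6.30, 6.52 and 5.43 FPKM in EtOH. In pair-fed mice it was at 0.457, 0.472 and 0.494 FPKM in PF4hLPS, against 3.27, 5.27 and 5.53 FPKM in PF. All LPS libraries were below all saline libraries, and the averaged fold change was -2.01 ± 0.13 (limma adjusted p = 2.9e-07). Oxgr1, the oxoglutarate receptor of type B cells, also fell in both diets (-0.998 ± 0.19 averaged; limma adjusted p = 0.00173). The ammonia transport genes Rhcg (-0.96 ± 0.19; adjusted p = 0.00283) and Rhbg (-0.89 ± 0.24; adjusted p = 0.0142) and the receptor kinase gene Kit (-0.64 ± 0.15; adjusted p = 0.00632) fell averaged and in pair-fed mice. Rhbg is listed at 0 in PF4hLPS 2, and its pair-fed call was lost under 11 of 24 alternatives (-0.76 without PF4hLPS 2, adjusted p = 0.133; largest adjusted p 0.164, without PF 3). That of Oxgr1 was lost under 4 of 24 in pair-fed mice and 6 of 24 in ethanol-fed mice, with adjusted p up to 0.0675 and 0.0954. The averaged calls of these 2 genes held under all 23 alternatives run.

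**Figure D4:**
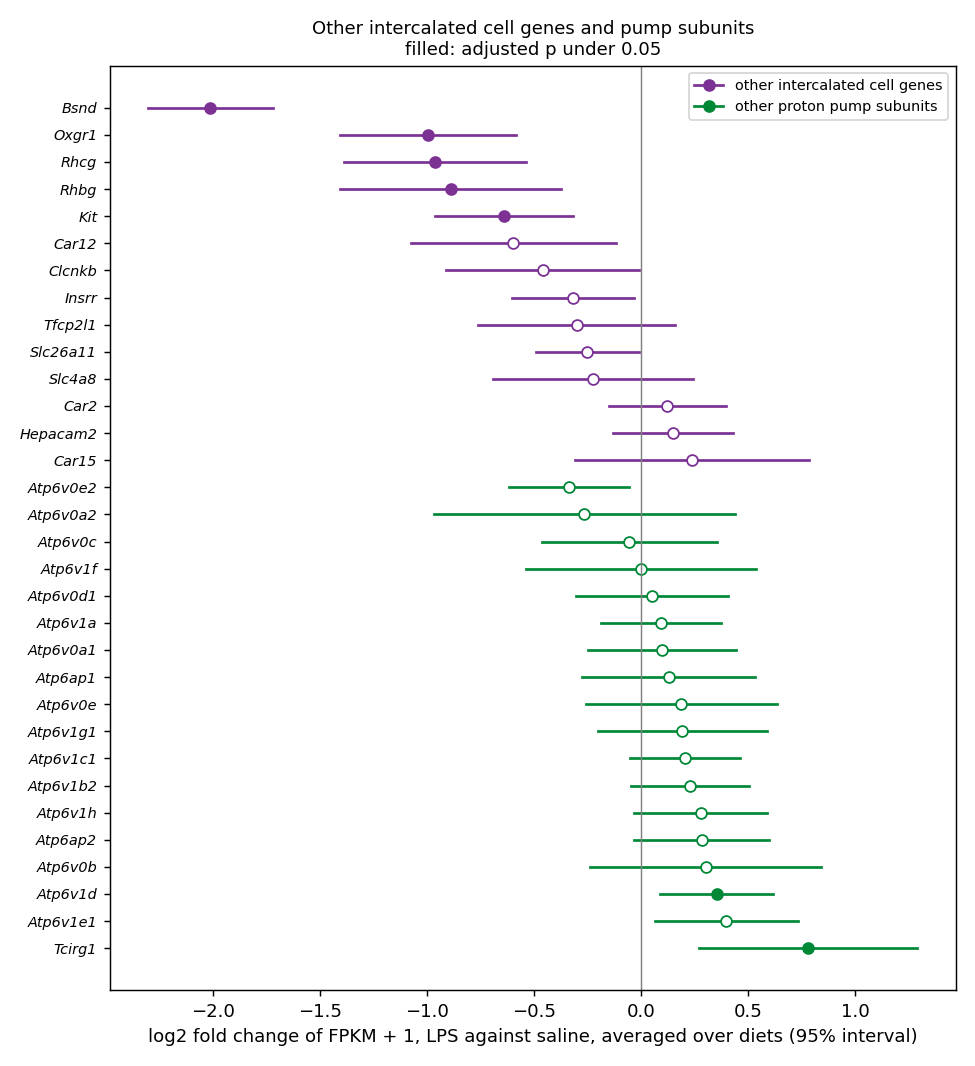
log2 fold change of FPKM + 1 with LPS against saline, averaged over diets, with 95% intervals from limma, for 14 other intercalated cell genes and 18 other pump subunits (filled circles: adjusted p under 0.05). The 5 filled intercalated cell genes are below 0, down to -2.01 for Bsnd, and the 2 filled pump subunits, Tcirg1 and Atp6v1d, are above 0.

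Of 16 acid-base genes of other nephron segments, 13 were tested. Averaged over diets none fell with LPS and 4 rose, beside 13.2% and 16.4% of all genes tested. Those that rose included the glutamate dehydrogenase gene Glud1 (0.60 ± 0.18; limma adjusted p = 0.0272), the bicarbonate cotransporter Slc4a7 (0.54 ± 0.14; adjusted p = 0.0105) and the kinase gene Ptk2b (0.48 ± 0.15; adjusted p = 0.0297). These 3 missed the threshold under scaling to equal total FPKM, with adjusted p between 0.287 and 0.749. With ethanol, averaged, 1 of the 13 passed, beside 0.319% of all genes tested. The membrane carbonic anhydrase gene Car4 was at 66.1, 56.3 and 73.4 FPKM in EtOH4hLPS against 94.8, 126 and 171 FPKM in PF4hLPS, and at 64.7, 66.3 and 67.9 FPKM in EtOH against 120, 121 and 106 FPKM in PF. All ethanol-fed libraries were lower, with a fold change of -0.87 ± 0.15 (limma adjusted p = 0.0354), and leaving out any 1 library other than PF4hLPS 1 raised the adjusted p to between 0.053 and 0.119.

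Markers of neighbouring cells moved with LPS as well. Of 11 principal cell genes tested, 4 fell in pair-fed mice, 3 in ethanol-fed mice and 4 averaged (the vasopressin receptor gene Avpr2 at -1.55, Hsd11b2 at -1.04, Kcnj1 at -0.96 and Aqp3 at -0.84; limma adjusted p between 3.26e-06 and 0.0196), and 0 rose. Over all genes tested, 6.89% fell in pair-fed mice, 6.39% in ethanol-fed mice and 13.2% averaged, and 16.4% rose averaged. The principal cell list summed to 107 to 147 FPKM in EtOH4hLPS, 184 to 187 in EtOH, 73.8 to 91.8 in PF4hLPS and 131 to 149 in PF. The neutrophil list summed to 167 to 254 FPKM in EtOH4hLPS, 3.35 to 5.58 in EtOH, 181 to 419 in PF4hLPS and 3.40 to 5.59 in PF, and all 4 of its tested genes rose averaged over diets (S100a8 by 5.23 and S100a9 by 5.21 log2 units). Of 5 macrophage genes 1 fell averaged (Csf1r, -0.53 ± 0.18; limma adjusted p = 0.0436), and of 8 proximal tubule genes 1 fell in pair-fed mice (Slc22a8, -0.97 ± 0.29; adjusted p = 0.0381). The Csf1r call was lost under 13 of 23 alternatives (limma adjusted p up to 0.183). That of Slc22a8 was lost under 12 of 24 (adjusted p up to 0.149). Of 7 endothelial genes, 6 fell and 1 rose averaged over diets, and of 8 thick limb and distal tubule genes 1 fell and 1 rose. The intercalated cell members summed to 234 to 251 FPKM in EtOH4hLPS, 171 to 218 in EtOH, 166 to 189 in PF4hLPS and 172 to 194 in PF, a sum that Atp6v0a4 dominates. The part of these other cell types in the members' changes was not tested.

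The 10 members did not vary together within groups. After the group means were taken out, 25 of the 45 pairs had a Pearson r above 0 over the 12 libraries, the median r was 0.02, and the values ran from -0.86 (Atp6v0d2 with Aqp6) to 0.85 (Atp6v1b1 with Slc4a9). Both genes of the last pair had an r of 0.86 with the library's GC slope, and the mean deviation of the members had an r of 0.71 and a rho of 0.62 with it over the same 12 libraries. The 8 genes whose deviations were most like that mean, of 7497 candidates at 5 FPKM or more, were Sirpa (r = 0.94), Vrk3 (0.94), Cct3 (0.94), Gm26602 (0.93), Retreg3 (0.92), Cmtr1 (0.92), Afg3l1 (0.91) and Impdh2 (0.91). These points share library preparation, depth and base composition, and 1 of these 8 genes, Cmtr1, changed with LPS averaged over diets (1.05; limma adjusted p = 0.00366).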

How the data were processed

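The data were 12 total RNA libraries of mouse kidney cortex. Per the labels' protocols, total RNA came from the mirVana kit, and the TruSeq Stranded Total RNA kit with ribosomal RNA removal gave stranded libraries. The authors deposited 1 table of normalized FPKM values for 47719 genes, and no counts were used. The submitters' processing notes name build mm10, Cuffnorm and Cuffdiff 2.1.1 as well as Cufflinks 2.2.1. They also name TopHat2 2.0.4, with FastQC 0.10.1. No source used here gives the annotation release or strand setting. Gene symbols, coordinates and GC content came from GENCODE M21 (47305 identifiers matched, 414 did not).

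The 14109 genes that reached 1 FPKM in 3 or more libraries were fitted as log2(FPKM + 1) in limma 3.58.1 (R 4.3.3). The fit had 1 mean per group over all 12 libraries and a trended, robust prior, with Benjamini-Hochberg adjustment over all genes tested and a threshold of 0.05. The script was tested on simulated data. LPS contrasts, ethanol contrasts and their interaction were taken from this 1 fit, so comparisons share groups. Isoform pair ratios were tested with a two-sided exact permutation test over 400 arrangements of the LPS labels within diets, adjusted over 5 pairs; 3 against 3 libraries alone cannot go below p = 0.1. Depth is unknown beyond a relative estimate, so no counting intervals are given.

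The members and lists were chosen with earlier results of these data known. The text names all members, the 5 paralogues, the genes of the other lists that passed the threshold (at most 6 per list and comparison, endothelial and distal genes as counts), and the 8 genes most like the members; some list genes are not reported here. Promoter windows came from a RefSeq table of GRCm38.p6. Those of 7 members were searched, and that of Slc4a9 was left out. Alternatives were another pseudocount, no filter, 4 other scalings, a plain prior, fits on the compared groups only, a GC correction, a replicate block, leaving out each library, and, chosen after seeing the data, leaving out the 3 GC-low libraries.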

Additional observations from a re-analysis of the deposited data

How the results depend on the processing

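Of the members' called LPS fold changes, those of Atp6v1c2 and Slc4a1 in pair-fed mice and averaged kept their direction and their call under every alternative run. Members lower with LPS in pair-fed mice numbered 5 under scaling to equal total FPKM, of all genes or of protein coding genes, in place of 3, and 5 under both scalings averaged over diets, also in place of 3. The pair-fed count was 4 with the GC correction, with or without the block, and 2 with no filter, with the replicate block and in a fit of the compared groups alone, where Atp6v1b1 was lost (adjusted p = 0.10, 0.0534 and 0.10). In ethanol-fed mice 1 was lower in place of 2 with no filter and with the replicate block. Leaving out 1 library gave 2 to 3 in pair-fed mice, 0 to 2 in ethanol-fed mice (0 without EtOH 1) and 2 to 3 averaged. The ethanol count averaged over LPS states was 1 (Slc4a1) in place of 0 with a pseudocount of 0.1, the GC correction and the replicate block with GC correction, and 0 to 1 with 1 library left out.

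The deviations of same-numbered libraries had a Pearson r between -0.21 and 0.28 over 18 pairs. With 3 libraries a group, this check cannot show whether the numbers mark a pairing or a batch. With the replicate block the permutation test has 64 arrangements, which limits the p it can reach. The ratios of Atp6v1c2 (-1.32), Atp6v1b1 (-0.90) and Atp6v0a4 (0.42) all had an adjusted p of 0.0521 over the 5 pairs. Calls over all genes with the block were 3 higher and 6 lower for ethanol averaged, in place of 14 and 31. After quantile normalization the Atp6v1b1 ratio was -0.71 (adjusted p = 0.0625) and the Atp6v0a4 ratio 0.27 (adjusted p = 0.075). The Atp6v0d2 ratio passed with the GC correction (-0.79; adjusted p = 0.00625) and without the GC-low libraries (-0.83; adjusted p = 0.0417), and ran from -0.74 to -0.42 with 1 library left out. Atp6v1d reversed, averaged over diets, to -0.0603 under equal total FPKM, -0.0032 under equal totals of protein coding genes and -0.0301 after quantile normalization. The cause of these changes was not tested.

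The FPKM table holds no fragment totals, so the counting error of the low members (Aqp6, Slc4a9, Slc4a1) is unknown. Their precision is also limited by 3 libraries a group.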
